A study of Mus musculus with 10 samples.

Results

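Low-GC promoters are the open chromatin regions (OCRs) of group 2 innate lymphoid cells (ILC2s) that lie at a transcription start site (TSS) but are made mostly of A and T bases. A region was taken as a promoter when its centre fell in the window from 1000 bp before to 100 bp after a RefSeq TSS of mm10, and as low-GC when under 50% of the bases between its ends were G or C. The rule left 1627 of the 50039 regions of the deposited count table (3.25%), at the TSS of 1541 genes. These were 13.7% of the 11856 promoter regions, and the other 10229 are called promoters of higher GC here. For 712 of the low-GC promoters the TSS was known only from predicted or other RefSeq models, whereas 915 lay at a curated TSS. Just inside the limit lay *Lpin3* (49.94% GC), *H2bc18* (49.93%), and *Pcdhgb4* (49.92%), and just outside it *Calcrl*, *Glrx*, and *Apol7e* (50.00% each).

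Accessibility was measured by ATAC-seq, in which the Tn5 transposase cuts open chromatin and adds sequencing adapters, so that reads pile up where DNA is open. There were 10 libraries, 2 for each of lung, pancreas, bone marrow (BM), small intestine (SI), and large intestine (LI), each from 50000 sorted ILC2s of wild-type C57BL/6 males aged 6 weeks, pooled from 16 mice (BM, lung, and pancreas) or 10 mice (LI and SI). Lineage-negative cells (no CD3, B220, CD11b, CD11c, or FcεRI) were sorted as ST2+CD25+ in BM, as CD45+CD127+ST2+CD25+ in LI, lung, and pancreas, and as CD45+CD127+Thy1lowKLRG1+ in SI. BM cells came from another sorter than the rest. Tissue, gate, and sorter therefore cannot be told apart for BM, nor tissue and gate for SI. LI, lung, and pancreas shared gate and sorter.

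Most mammalian promoters sit in CpG islands, stretches rich in G, C, and the dinucleotide CpG, which are open in almost every cell type and are bound by SP/KLF, ETS, and NRF1 factors. Promoters outside CpG islands are poor in CpG, more often hold a TATA box, and tend to belong to genes with restricted expression, such as cytokines, lectin-like receptors, and tissue enzymes. ILC2s are tissue-resident lymphocytes that depend on GATA3, respond to IL-33 through ST2, and release IL-5 and IL-13.

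The contrast between both kinds of promoter can be read from the DNA itself. Shown here are the 200 bases before the TSS, 5′ to 3′ on the strand of the gene, with each CpG in capitals, in the RefSeq assembly GRCm38.p6, which has the coordinates of mm10. *Id2*, the gene of an inhibitor of E proteins needed by all innate lymphoid cells, was chosen after its values were seen as a promoter of higher GC (chr12:25096093-25096292, minus strand, 62.5% GC, 16 CpG). *Gzma*, which encodes the protease granzyme A (chr13:113100982-113101181, minus strand, 45% GC), held 2 CpG, and *Serpinb2*, which encodes plasminogen activator inhibitor 2 (chr1:107511223-107511422, plus strand, 32.5% GC), held 0. Both are low-GC promoters whose accessibility in SI is described further on.
Id2: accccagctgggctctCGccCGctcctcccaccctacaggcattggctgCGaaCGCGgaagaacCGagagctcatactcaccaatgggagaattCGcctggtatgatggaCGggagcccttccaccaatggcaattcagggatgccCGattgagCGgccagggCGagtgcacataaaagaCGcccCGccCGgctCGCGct
Gzma: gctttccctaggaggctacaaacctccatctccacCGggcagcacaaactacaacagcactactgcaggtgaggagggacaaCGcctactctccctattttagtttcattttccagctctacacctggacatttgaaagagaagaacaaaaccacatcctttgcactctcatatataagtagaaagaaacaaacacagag
Serpinb2: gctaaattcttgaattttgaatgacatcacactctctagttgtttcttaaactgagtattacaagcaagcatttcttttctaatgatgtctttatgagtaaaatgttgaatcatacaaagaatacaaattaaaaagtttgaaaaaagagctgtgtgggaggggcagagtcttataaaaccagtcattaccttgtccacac

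A second set of sequences shows the GATA letters that were frequent in low-GC promoters, AGATAA or TGATAA on either strand, with each match in capitals (TTATCT is AGATAA on the other strand). *Gid8* (chr2:180712346-180712545, plus strand) was most accessible in BM, with 1 match, 123 bp before the TSS. *Il1rl1*, the gene of the IL-33 receptor ST2, has 2 low-GC promoters. The one at its downstream TSS (chr1:40439429-40439628, plus strand) held 1 match, 103 bp before the TSS, and the one at its upstream TSS (chr1:40429333-40429532, plus strand) held 2, at 180 bp and 43 bp. Such a match is a description of the letters and does not show that a factor binds there.
Gid8: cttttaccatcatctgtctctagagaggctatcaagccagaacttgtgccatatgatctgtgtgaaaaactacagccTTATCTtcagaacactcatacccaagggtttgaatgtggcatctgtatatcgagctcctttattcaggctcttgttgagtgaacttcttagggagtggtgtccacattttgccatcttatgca
Il1rl1 downstream TSS: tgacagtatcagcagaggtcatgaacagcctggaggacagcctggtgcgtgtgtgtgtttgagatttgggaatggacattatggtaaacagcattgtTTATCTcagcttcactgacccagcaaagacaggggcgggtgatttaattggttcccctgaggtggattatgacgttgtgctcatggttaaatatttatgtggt
Il1rl1 upstream TSS: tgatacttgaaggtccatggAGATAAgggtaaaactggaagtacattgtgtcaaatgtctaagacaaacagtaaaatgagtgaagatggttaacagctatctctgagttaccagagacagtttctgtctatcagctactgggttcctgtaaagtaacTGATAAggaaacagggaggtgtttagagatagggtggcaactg

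Counts per library summed to between 10282987 (pancreas replicate 2) and 32797872 (lung replicate 2), with a median count per region between 71 and 259. Low-GC promoters took 1.8% to 2.37% of the counts of a library, and promoters of higher GC 26.8% to 41.4%. All low-GC promoters had counts and were among the 49981 regions tested. The low-GC promoter of *Ptprc*, which encodes CD45, lay between 11.1 and 17.5 CPM (the count scaled by TMM library size) over the 10 libraries, that of *Il7r*, which encodes CD127, between 11.3 and 20.5 CPM, and that of *Il2ra*, which encodes CD25, between 22.4 and 40.2 CPM. The promoter of *Id2* lay between 42.6 and 77.9 CPM.

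Low-GC promoters were poorer in CpG and less accessible than promoters of higher GC. Their median GC content was 46.1% against 63.1%, and their median number of CpG per 100 bp was 1.40 against 7.62. The ratio of observed to expected CpG, a measure of how far CpG has been lost from the sequence, had a median of 0.280 against 0.779, and was above 0.6 in 11.8% of low-GC promoters and 77.8% of the others. By these measures low-GC promoters resembled the 23763 regions under 50% GC away from promoters, with medians of 44.9% GC, 0.998 CpG per 100 bp, and a ratio of 0.213. Repeats masked a median of 13.2% of their bases, against 4.53% at promoters of higher GC and 14.2% at the other regions under 50% GC. Their median accessibility, as the mean of the 10 libraries per length, was 14.0 CPM per kb (quartiles 7.54 and 26.0). It was 43.0 (18.4 and 78.9) at promoters of higher GC and 9.27 at the other regions under 50% GC. Their centres lay further from the TSS, with a median position of −214 bp against −32 bp. A window around the centre that held the TSS of more than 1 gene was found at 5.84% against 18.6%. The motif TATAAA or TATATA stood 40 to 20 bp before the TSS in 2.03% of low-GC promoters and in 1.09% of the others.

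The lower level was seen in each library. The median log2 CPM of low-GC promoters was below that of promoters of higher GC by between −1.46 (LI replicate 2 and pancreas replicate 2) and −2.14 (BM replicate 2). It differed from the median of all regions by −0.02 to 0.16. The most accessible low-GC promoters per length were those of *Tbc1d10b* (275 CPM per kb), which encodes a Rab GTPase-activating protein, *Ticam1* (146), the adaptor TRIF of Toll-like receptors, and *Fhit* (143), a hydrolase. *Ticam1* was nearly level, between 66.5 and 84.6 CPM over the 10 libraries. Leaving out numbered gene models, the lowest GC contents were those of the pheromone receptor gene *Vmn1r20* (31.7%), *Ms4a4b* (31.9%), and the activating receptor gene *Klrk1* (32.4%).

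**Figure D1:**
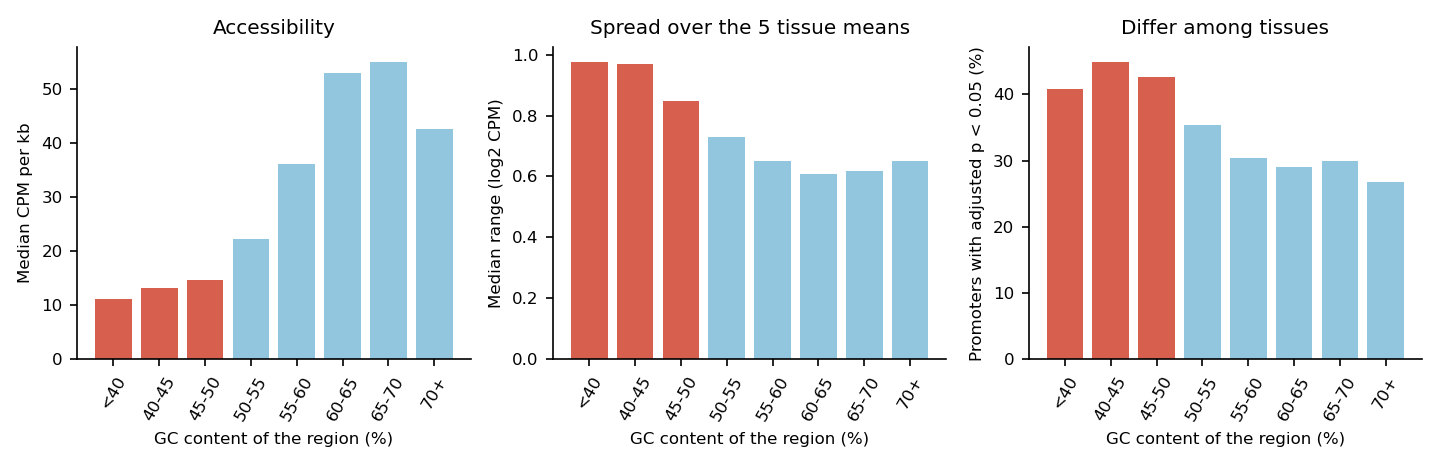
Promoter regions by GC content (bins in %, x axis), with low-GC promoters in red and promoters of higher GC in blue. Bars give the median CPM per kb (left), the median range of log2 CPM over the 5 tissue means (middle), and the percent of promoters that differed among tissues (right). From under 40% GC to 65-70% GC the level went from 11.1 to 55 CPM per kb and the range from 0.976 to 0.619.

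The genes at low-GC promoters were of other kinds than those at promoters of higher GC. Protein-coding genes made up 993 of the 1627, which is 9.98% of all promoters of protein-coding genes, and long non-coding RNAs 395, which is 29.4% of theirs. Low GC applied to 93.3% of the promoters of variable segments of antigen receptors (28 regions), to 62.9% of those of small nucleolar RNAs (22), to 46.8% of those of tRNAs (52), and to 23.9% of those of microRNAs (16). Genes for small RNAs, V segments, and other multicopy families have near-identical copies, and the authors kept uniquely mapped reads, so their levels are uncertain. At low-GC promoters the median level was 22.7 CPM per kb for tRNA genes, 15.4 for protein-coding genes, and 10.5 for long non-coding RNAs.

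The first comparison asked how far each promoter varied over tissues. The range of the 5 tissue means had a median of 0.897 on the log2 CPM scale at low-GC promoters, 0.640 at promoters of higher GC, 1.22 at the other regions under 50% GC, and 0.915 over all regions. Replicates of a tissue differed by a median of 0.344 at low-GC promoters and 0.249 at promoters of higher GC. In edgeR's quasi-likelihood F test, 702 low-GC promoters (43.1%) differed among the 5 tissues at a Benjamini-Hochberg (BH) adjusted p under 0.05, against 44.2% of all regions, 30.1% of promoters of higher GC, and 53.5% of the other regions under 50% GC. The share of low-GC promoters was thus close to that of all regions. With 2 libraries per tissue, p-values measure the spread between libraries of pooled mice. In bulk libraries, more cells with a region open and a more open region in each cell cannot be told apart.

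The share that differed also went with the level of accessibility. Among promoters with a mean under 4 CPM, 51.2% of the low-GC promoters and 31.9% of the others differed among tissues. Between 8 and 16 CPM these shares were 40.5% and 26.3%, and at 32 CPM or more, where only 142 low-GC promoters were found, 35.9% and 34.0%. The share of low-GC promoters was below that at other regions under 50% GC in 4 of the 5 classes of level, for example 37.2% against 59.2% between 16 and 32 CPM, and was above it under 4 CPM (51.2% against 47.6%). The median range of low-GC promoters was 1.51 under 4 CPM and 0.628 at 32 CPM or more. A region was listed when it was a peak in both replicates of any tissue. Promoters of low mean may thus be listed through the tissue where they are high, which would raise their range and the share that differed. How far this holds was not tested.

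Distances between tissues were compared next. The median absolute difference of log2 CPM was taken between single libraries and averaged over the pairs of libraries from both tissues. At low-GC promoters it was largest for BM and LI (0.543), BM and SI (0.531), and BM and pancreas (0.496). The largest distance was also one to BM at other regions under 50% GC (BM and LI, 0.681) and at promoters of higher GC (BM and pancreas, 0.45). Not each distance to BM was large. At low-GC promoters that of BM and lung (0.453) was below those of pancreas and SI (0.488) and lung and SI (0.458). At low-GC promoters the distance was smallest for lung and pancreas (0.348) and LI and pancreas (0.350). Between the replicates of a tissue it lay between 0.261 (pancreas) and 0.350 (SI), so the distance of LI to pancreas equalled that of the SI replicates from each other.

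Among the 702 low-GC promoters that differed, the tissue with the highest mean was BM for 162 (23.1%), LI for 155 (22.1%), pancreas for 152 (21.7%), SI for 145 (20.7%), and lung for 88 (12.5%). Among the promoters of higher GC that differed it was BM for 64.4%, SI for 15.9%, lung for 8.36%, pancreas for 6.15%, and LI for 5.24%. The tissue with the highest mean was thus spread over 4 tissues at low-GC promoters and mostly BM at the others.

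This split went with a shift by GC content that ran through whole libraries. The median log2 fold change of low-GC promoters against the mean of the other 4 tissues was −0.09 in BM and −0.07 in lung, 0.11 in LI, 0.03 in pancreas, and 0.02 in SI. That of promoters of higher GC was 0.26 in BM and 0.06 in lung, −0.16 in LI, −0.17 in pancreas, and 0.04 in SI. After a trend with GC content and width was removed from each library, the medians of low-GC promoters were 0.13 in BM, −0.07 in LI, and −0.10 in pancreas, each with the opposite sign. When libraries were scaled by their size only and not by TMM, the median of all regions moved by 0.18 in lung, 0.17 in SI, −0.13 in LI, and −0.13 in pancreas. Relative to the median of all regions, low-GC promoters lay at −0.09 in BM and 0.09 in LI under either of these scalings. Whether the trend with GC content came from the cells or from the libraries was not tested.

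**Figure D2:**
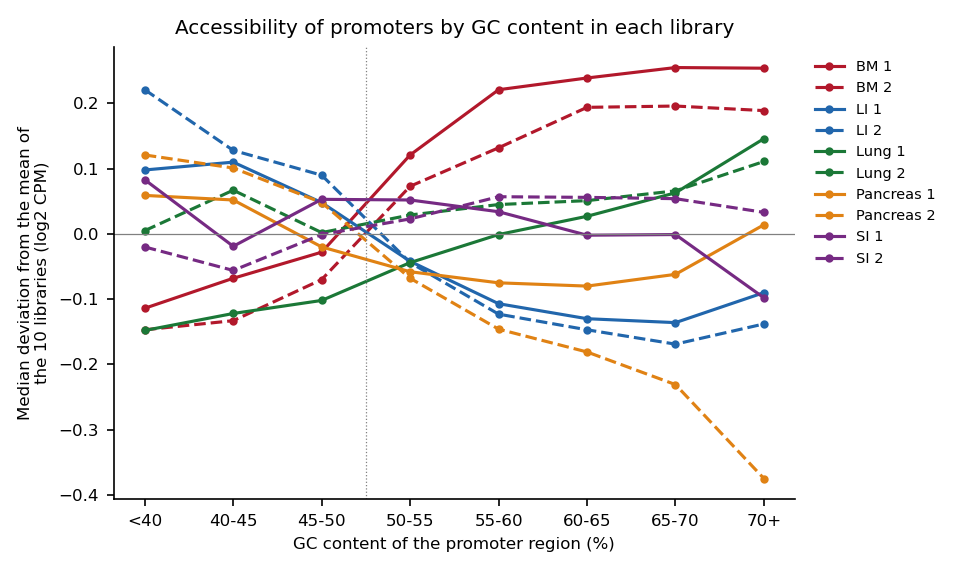
Median deviation of log2 CPM from the mean of the 10 libraries (y axis) at promoters grouped by GC content in % (x axis), 1 line for each library (solid for replicate 1, dashed for replicate 2), with a dotted line at 50% GC. Both BM libraries went from −0.114 and −0.147 under 40% GC to 0.255 and 0.196 at 65-70% GC, both LI libraries from 0.098 and 0.221 to −0.136 and −0.169, and pancreas replicate 2 reached −0.375 at 70% GC or more.

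CpG content split the low-GC promoters. In the 192 whose ratio of observed to expected CpG was above 0.6, the median level was 26.8 CPM per kb, the median range 0.631, and 24.5% differed among tissues. In the 1435 with a ratio of 0.6 or less these values were 13.0 CPM per kb, 0.946, and 45.6%. Promoters of higher GC with a ratio above 0.6 had a median range of 0.614, with 28.6% that differed, and those with a lower ratio 0.767 and 35.1%. The median log2 fold change in BM against the other tissues was 0.29 in the CpG-rich low-GC promoters and −0.14 in the rest. By distance to the TSS, 42.0% of the low-GC promoters centred within 250 bp upstream to 100 bp downstream of the TSS differed among tissues, 50.0% of those centred further upstream and up to 500 bp, and 42.3% of those centred beyond 750 and up to 1000 bp upstream.

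For 360 genes the table held both a low-GC promoter and a promoter of higher GC, whose TSSs lay a median of 1828.5 bp apart, so that both kinds can be compared within a gene. At part of these genes both regions were assigned to the same TSS, such as *Abca1*, *Cdc42*, and *Tgfbr2* (0 bp apart). There they are neighbouring regions of the same promoter and not separate promoters. The low-GC promoter was less accessible per length at 301 of them and had the wider range over tissues at 229. The median range was 0.835 at the low-GC and 0.61 at the higher-GC promoter, and the median level 15.8 and 46.4 CPM per kb. Only the low-GC promoter differed among tissues at 91 genes, only the other at 53, both at 58, and neither at 158. A promoter that differed beside one that did not was not tested for the difference between them.

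The second comparison asked which low-GC promoters set 1 tissue apart. A promoter was called higher in a tissue when edgeR's test gave an unadjusted p under 0.05 in each of the 4 contrasts with the other tissues, all in that direction, and lower likewise, which follows the study's definition of tissue-specific OCRs. Called low-GC promoters numbered 81 higher and 104 lower in BM, 34 and 50 in SI, 21 and 30 in lung, 22 and 1 in LI, and 16 and 9 in pancreas. The shares are read against those of all regions in each account that follows. A call holds for the low-GC region named, and some of the genes also have a more accessible promoter of higher GC.

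**Figure D3:**
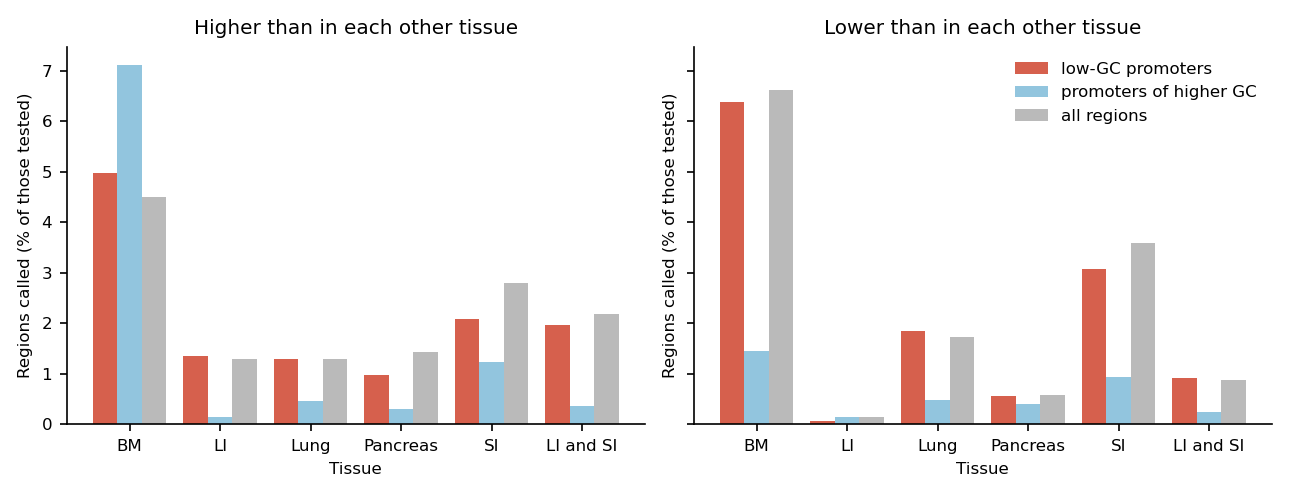
Percent of the regions tested (y axis) called higher (left) or lower (right) in each tissue, and in LI and SI together against the other 3 tissues, for low-GC promoters (red), promoters of higher GC (blue), and all regions (grey). In BM, 4.98% of low-GC promoters were higher and 6.39% lower, and of promoters of higher GC 7.12% and 1.44%.

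BM set the most low-GC promoters apart, as it did among all regions (2249 higher and 3316 lower). The low-GC promoters most open there included many genes of red blood cells. The 81 called higher were 4.98%, against 4.5% of all regions, and 49 of them also had an adjusted p under 0.05 in each contrast. *Gid8*, which encodes a subunit of the CTLH ubiquitin ligase complex (region chr2:180712255-180712755), had 16.0 and 8.42 CPM in BM, 0.77 and 0.592 in SI, 1.13 and 0.478 in LI, 0.412 and 0.647 in pancreas, and 0.862 and 0.331 in lung. Both BM libraries stood above all others. Its smallest log2 fold change over the other tissues was 4.02 ± 0.553 (SE, against LI), with an adjusted p of 8.16e-05 by edgeR's quasi-likelihood test with BH adjustment.

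*Trim10*, a TRIM protein of maturing red cells, had 12.7 and 3.87 CPM in BM and 0.166 to 0.647 CPM in the 8 other libraries. Its smallest log2 fold change was 3.74 ± 0.686 (edgeR, BH adjusted p = 0.00108), and 2.64 without BM replicate 1. *Iqgap2*, which encodes a scaffold protein, followed at 3.93 ± 0.499 from a predicted TSS (BM 20.5 and 8.74 CPM, others 0.418 to 1.29). In each of these low-GC promoters BM replicate 1 was above replicate 2. *Gid8* and *Iqgap2* also have a promoter of higher GC, with 81.6 and 76.7 CPM per kb against 5.92 and 7.01. The range over tissues at those was 0.83 and 0.39, against 4.26 and 4.48 at the low-GC promoters. Without BM replicate 1, only 29 low-GC promoters were called higher in BM. With the trend in GC content and width removed 148 were called, among them all 81.

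Chosen after their values were seen, further red-cell genes among the 81 were *Epb42* (smallest log2 fold change 3.74), *Uros* (3.33), *Kel* (3.23), *Cd36* (2.88), *Hbb-bt* (2.76), and *Sox6* (2.75). They encode membrane proteins, a heme synthesis enzyme, a globin, and a transcription factor of red cells. The low-GC promoter of *Hbb-bt*, a beta-globin gene, had 8.61 and 5.25 CPM in BM and 0.209 to 1.73 CPM elsewhere. The promoters of the 4 globin genes with a region in the table (*Hba-a1*, *Hba-a2*, *Hbb-bs*, and *Hbb-bt*), of which 1 was low-GC, summed to 46.3 and 24.7 CPM in BM, 6.45 and 7.14 in SI, 7.58 and 5.17 in LI, 5.42 and 10.4 in pancreas, and 4.55 and 4.28 in lung. No promoter region was listed for *Alas2*, *Klf1*, *Pf4*, *Ppbp*, *Itga2b*, or *Gp9*. BM cells were sorted as ST2+CD25+, the lineage gate named no marker of red cells, and the part of such cells in the BM result was not tested.

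The 104 low-GC promoters lower in BM were 6.39%, against 6.63% of all regions, and 54 had an adjusted p under 0.05 in each contrast. *Lnx2*, which encodes a ubiquitin ligase that binds Numb (predicted TSS), had 1.81 and 1.61 CPM in BM and 6.98 to 12.1 CPM in the other libraries, with no overlap. Its smallest log2 fold change in size was −2.06 ± 0.286 (edgeR, BH adjusted p = 9.6e-05). *Lgals7*, which encodes galectin-7, fell by 2.04 (adjusted p = 0.00242), with −1.36 without SI replicate 2, and *Ston2*, an endocytosis adaptor, by 1.91 (adjusted p = 0.00512).

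Among the other genes lower in BM, chosen after their values were seen, were the receptor gene *Tigit* (7.54 and 7.09 CPM in BM, 17.3 to 43.3 elsewhere), *Irf4*, a transcription factor of lymphocyte activation (4.11 and 3.36 CPM in BM, 6.42 to 13.0 elsewhere), and both low-GC promoters of *Mir155*. *Tigit* and *Irf4* had adjusted p-values of 0.000324 and 0.0344 in edgeR's weakest contrast, and *Mir155* of 0.0622 and 0.0802. With the trend in GC content and width removed 61 of the 104 calls were left, so that higher against lower calls stood at 148 to 61 in place of 81 to 104.

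In LI, 22 low-GC promoters were higher (1.35%, against 1.3% of all regions) and 1 was lower (0.0615%, against 0.132%). Leaving out numbered gene models and Rik symbols, lectin-like receptor genes of the natural killer complex led the list of higher promoters. *Klrc2*, which encodes NKG2C (region chr6:129660330-129660830), had 10.3 and 12.9 CPM in LI, 2.02 and 3.52 in SI, 1.83 and 2.37 in pancreas, 1.92 and 1.96 in lung, and 1.71 and 2.81 in BM. The LI libraries did not overlap with the rest, and the smallest log2 fold change was 2.06 ± 0.365 (edgeR, BH adjusted p = 0.00272). *Klrc3*, which encodes NKG2E, had 10.2 and 10.6 CPM in LI and 0.766 to 3.03 CPM elsewhere (1.88, adjusted p = 0.00642). *Klrc2* and *Klrc3* are similar in sequence, and only uniquely mapped reads were counted.

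*Mmp10*, which encodes a matrix metalloproteinase, had a smallest log2 fold change in LI of 1.10 and an adjusted p of 0.151 in edgeR's weakest contrast, and its call was lost in 5 of 10 fits without 1 library. The 1 lower promoter, of *Tspoap1*, had 15.8 and 18.5 CPM in LI and 21.8 to 47.9 elsewhere (−0.45, adjusted p = 0.321). The call of this promoter was lost in 8 such fits, and the count was 0 without BM replicate 1, BM replicate 2, lung replicate 1, lung replicate 2, or pancreas replicate 1, and it was 2 without LI replicate 1, LI replicate 2, or SI replicate 2. Of the 22 higher calls 5 had an adjusted p under 0.05 in each contrast. With the trend in GC content and width removed 11 higher and 9 lower promoters were called in LI, and with library size alone 0.676% and 0.184%.

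In lung, 21 low-GC promoters were higher (1.29%, against 1.3% of all regions) and 30 lower (1.84%, against 1.72%). *Adgrf5*, an adhesion receptor known for its part in lung surfactant balance (region chr17:43388722-43389257), had 22.9 and 22.6 CPM in lung, 9.13 and 11.2 in pancreas, 3.66 and 5.17 in LI, 2.3 and 3.04 in BM, and 1.97 and 1.64 in SI. Lung stood above pancreas and pancreas above the other tissues, and the smallest log2 fold change was 1.17 ± 0.266 (edgeR, BH adjusted p = 0.0174). *Shank2*, which encodes a scaffold protein, rose by 1.88 (6.0 and 7.01 CPM in lung, 0.433 to 2.26 elsewhere, adjusted p = 0.0284). *Ldlrad4*, an inhibitor of TGF-β signalling, rose by 1.67 (19.4 and 34.8 CPM in lung, 3.56 to 10.8 elsewhere, adjusted p = 0.0024). Its promoter of higher GC had 173 CPM per kb against 21.5, and a range over tissues of 0.7 against 2.81.

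Decreases in lung included promoters of low level. *Lrrc39* had 0.862 and 0.469 CPM in lung and 1.83 to 9.2 elsewhere (−1.76, edgeR BH adjusted p = 0.0423). *Ms4a4b* gave −1.48 (adjusted p = 0.117), a call that was lost without BM replicate 2, LI replicate 2, lung replicate 2, or pancreas replicate 2. Without lung replicate 2 there were 7 higher and 12 lower calls, and without pancreas replicate 2 19 lower ones. With library size alone 2.15% were higher and 1.04% lower in lung, and with the trend in GC content and width removed 1.91% and 1.35%.

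In pancreas, 16 low-GC promoters were higher (0.983%, against 1.43% of all regions) and 9 lower (0.553%, against 0.572%). Of these 25 calls, 1 had an adjusted p under 0.05 in each contrast. The olfactory receptor gene *Olfr823* had 5.42 and 6.36 CPM in pancreas, 3.31 and 2.0 in LI, and 0.46 to 2.23 in the other libraries, without overlap. Its smallest log2 fold change was 1.17 ± 0.438 and its adjusted p 0.183 in edgeR's weakest contrast. *Snord116l17*, a small nucleolar RNA gene with many near-identical copies, gave 1.10 (adjusted p = 0.292) and *Rsph4a*, a gene of cilia, 0.96 (adjusted p = 0.291).

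Among the lower promoters in pancreas, *Dkk3*, which encodes a secreted glycoprotein, gave −1.25 (edgeR, BH adjusted p = 0.116), with 0.589 and 3.67 CPM in pancreas against 3.18 to 14.4 elsewhere, so the groups overlapped. Without pancreas replicate 1 this value was −0.32. *Ldlrad4* (−0.95) and *Niban1* (−0.86) followed, with adjusted p-values of 0.225 and 0.158. There were 10 higher calls without lung replicate 1 and 7 without pancreas replicate 2, and the lower calls numbered 3 without LI replicate 2 or lung replicate 2 and 5 without lung replicate 1. With library size alone 0.553% were higher and 0.860% lower in pancreas, and with the trend in GC content and width removed 0.799% and 0.922%.

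SI had 34 low-GC promoters higher (2.09%, against 2.8% of all regions) and 50 lower (3.07%, against 3.59%), and the lower calls held up more often. An adjusted p under 0.05 in each contrast was reached by 27 of the 50 and 7 of the 34, and 25 of the 50 but 4 of the 34 kept their call in all 10 fits without 1 library. *Serpinb2* (region chr1:107511121-107511679) had 1.16 and 0.766 CPM in SI, 4.82 and 4.58 in lung, 4.16 and 6.07 in BM, 8.46 and 8.56 in LI, and 9.95 and 12 in pancreas. Both SI libraries lay below all others, and the smallest fall on the log2 scale was −2.30 ± 0.336 (edgeR, BH adjusted p = 0.000159). *Mtmr7*, which encodes a lipid phosphatase, had 1.3 and 0.314 CPM in SI and 4.96 to 15.4 elsewhere (−2.72, adjusted p = 0.00196).

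*Il1rl1*, the gene of ST2, was lower in SI at both of its low-GC promoters. At the downstream TSS (region chr1:40439322-40439822) it had 1.69 and 0.523 CPM in SI, 4.71 and 4.95 in LI, 4.26 and 3.77 in BM, 15 and 13.7 in pancreas, and 9.25 and 12.5 in lung. The smallest fall was −1.91 ± 0.403 (edgeR, BH adjusted p = 0.0032), and −1.25 without SI replicate 2. At the upstream TSS (region chr1:40429061-40429563) it had 2.84 and 3.03 CPM in SI, 5.67 and 7.39 in LI, and 13.0 to 27 in BM, lung, and pancreas. At this TSS BM lay with lung and pancreas, whereas at the downstream TSS it lay with LI. SI cells were gated without ST2 and all other cells by ST2, so the gate and the tissue cannot be told apart at this gene.

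Among the promoters higher in SI, the smallest log2 fold change was 1.85 for *Gzma*, 1.32 for *Epb41*, and 1.21 for *Stau1*. *Gzma* (region chr13:113100806-113101306) had 6.02 and 6.27 CPM in SI, 1.66 and 1.74 in LI, and 0.304 to 1.17 in the rest, and its value without SI replicate 2, the weakest of the 10 fits without 1 library, was 1.8. *Epb41*, which encodes the membrane skeleton protein 4.1 (predicted TSS), had 21.0 and 33.2 CPM in SI, above 2.77 to 12.9 elsewhere (edgeR, BH adjusted p = 0.00858). *Stau1*, which encodes an RNA-binding protein, had an adjusted p of 0.133. The higher calls numbered 18 without SI replicate 1, 60 without SI replicate 2, and 20 without LI replicate 2, and with library size alone 4.61% were higher and 2.09% lower. *Cd68*, a marker of macrophages named after its values were seen, was among the calls (16.5 and 15.4 CPM in SI, 7.39 to 11 elsewhere). *Fcgr3*, the other myeloid marker gene with a promoter region, of higher GC, had a log2 fold change against the other tissues of −0.42 in SI and 0.60 in BM. The 2 of 21 myeloid genes summed to 20.8 to 23.8 CPM in SI and 11.9 to 21.7 elsewhere, and the 2 of 12 B cell genes to 12.5 to 19.5 in SI and 5.49 to 12.8 elsewhere. The part of such cells in the SI result was not tested.

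**Figure D4:**
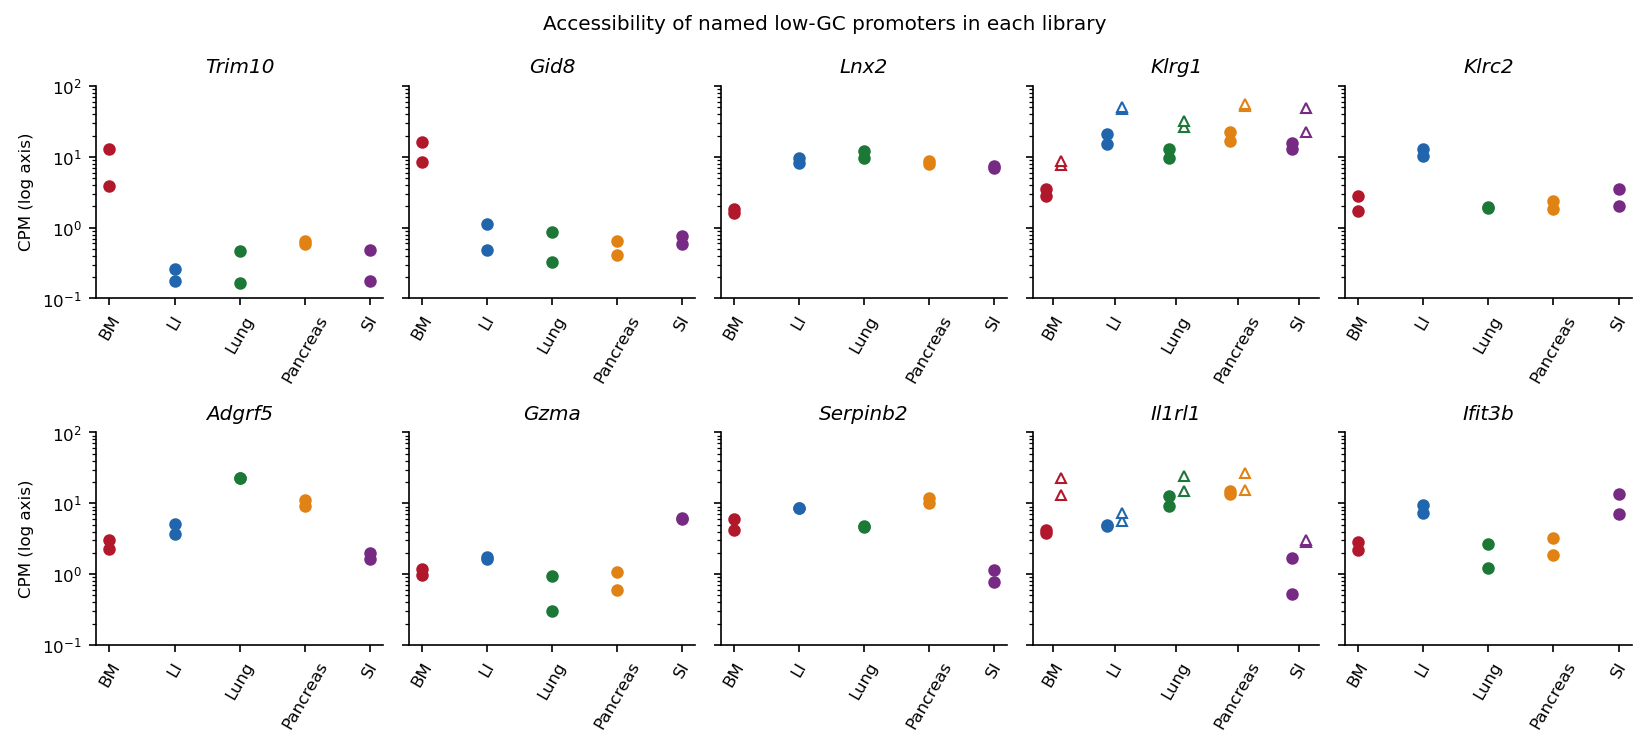
CPM on a log axis (y) in each library by tissue (x) for 10 low-GC promoters, with 1 point for each library. For Klrg1 and Il1rl1 filled circles are the promoter region nearer to its TSS and open triangles the second one. Trim10 and Gid8 stood highest in BM, Klrc2 in LI, Adgrf5 in lung, and Gzma in SI, and both Il1rl1 promoters stood lowest in SI.

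The third comparison took both intestinal tissues together, each against BM, lung, and pancreas. In all 6 contrasts 32 low-GC promoters were higher (1.97%, against 2.18% of all regions) and 15 lower (0.922%, against 0.874%). *Ifit3b*, an interferon-induced gene (region chr19:34607332-34607851), had 9.33 and 7.21 CPM in LI, 13.6 and 7.18 in SI, 1.88 and 3.24 in pancreas, 2.63 and 1.21 in lung, and 2.84 and 2.16 in BM. The intestinal libraries stood above the rest, with a smallest log2 fold change of 1.72 ± 0.415 (edgeR, BH adjusted p = 0.0386). *Ces2d-ps*, a carboxylesterase pseudogene, had 7.94 to 15.9 CPM in the intestine and 1.88 to 3.88 elsewhere (1.66, adjusted p = 0.00255). *Cdh17*, which encodes the liver-intestine cadherin, had 7.85 and 6.56 CPM in LI and 18.3 and 4.67 in SI (1.72, adjusted p = 0.0846, and 1.06 without SI replicate 1). The epithelial markers with a promoter region, 3 of 18 genes, summed to 11.1 to 16.6 CPM in LI, 14.2 to 18.9 in SI, and 11.2 to 15.7 in the other libraries, and the part of such cells was not tested.

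The upstream *Il1rl1* promoter was also among those lower in both intestinal tissues, with a smallest fall of −1.43 ± 0.333 (edgeR, BH adjusted p = 0.0109). *Cd101*, an inhibitory receptor gene, gave −1.48 (0.801 to 1.35 CPM in the intestine, 2.51 to 3.84 elsewhere, adjusted p = 0.0498) and *Usp54* −1.27 (adjusted p = 0.219). The higher calls numbered 21 without BM replicate 2, 17 without LI replicate 2, and 10 without pancreas replicate 1. With the trend in GC content and width removed 25 were higher and 24 lower in both intestinal tissues.

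Genes of type 2 immunity and ILC2 identity held 15 low-GC promoters, from 12 genes, among 39 promoters. Of these 15, 11 differed among tissues, against 7 of the 24 promoters of higher GC and 44.2% of all regions. Their median range over tissues was 1.21, against 0.673 for the 24 and 0.897 for all low-GC promoters. *Klrg1*, which encodes an inhibitory receptor of mature ILC2s, was lower in BM at both of its low-GC promoters. The region at the TSS (chr6:122282615-122283136) had 3.57 and 2.76 CPM in BM, 9.57 and 13.1 in lung, 12.8 and 15.7 in SI, 15 and 20.7 in LI, and 22.4 and 16.9 in pancreas. The region centred at −909 bp from the TSS had 7.58 and 8.7 CPM in BM and 22.4 to 55.4 elsewhere. BM did not overlap with the other tissues at either region. KLRG1 was part of the SI gate and of no other gate.

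*Tnfrsf9*, which encodes the activation receptor 4-1BB, was lower in BM, with 13.4 and 17.5 CPM against 21.2 to 30.7 (−0.60, edgeR BH adjusted p = 0.064). Its promoter of higher GC (147 CPM per kb, against 46.8) did not pass the F test, with a range of 0.8 against 0.82. *Arg1*, which encodes arginase-1, was lower in SI, with 17.0 and 21.2 CPM against 30.7 to 55.1 (−0.85, adjusted p = 0.0259). Among the genes without a call for a tissue, *Il4* differed among tissues, with 24.8 and 18.4 CPM in BM and 8.0 and 9.72 in lung (F test adjusted p = 0.0018). Of 2 low-GC promoters of *Il5*, 1 differed (3.23 and 3.91 CPM in BM, 10.5 and 9.06 in pancreas, adjusted p = 0.00902) and the other did not pass (15.7 to 33.9 CPM, adjusted p = 0.19). *Il6* (adjusted p = 0.00841), *Hpgds*, which encodes a prostaglandin D synthase (0.0212), and *Il2ra* (0.0181) also differed. *Icos* (10.4 to 17.6 CPM, 0.774), *Il7r* (0.104), and *Pparg* (0.252) did not pass the test.

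NK-type receptor and cytotoxic granule genes had low-GC promoters at 13 of 16 regions, of which 9 differed among tissues, as did the 3 of higher GC. The median range was 1.46 at the 13 and 2.42 at the 3. These counts and those of the lists that follow stand beside the 44.2% of all regions that differed. In all these lists, genes other than the members with the widest range were chosen after their values were seen. Calls fell on LI (*Klrc2*, *Klrc3*, and *Klrk1*, higher), BM (both of *Klrg1*, lower), SI (*Gzma*, higher, and 1 region of *Cd226*, lower), and lung (*Klrb1b*, lower), and *Klrb1b* was higher in LI and SI together. In edgeR's weakest contrast the BH adjusted p of *Klrb1b* was 0.0801 in lung and 0.318 in LI and SI together. That of *Cd226* was 0.102, and this region did not pass the F test (adjusted p = 0.0532). *Klrb1b* had the widest range, 3.33 on the log2 scale. It had 3.14 and 5.52 CPM in LI, 5.83 and 4.77 in SI, and 0.392 and 0.497 in lung. By contrast *Cd69*, an early activation antigen (34.3 to 55.3 CPM), and *Clec2d*, a ligand of NK receptors (42.8 to 60.8 CPM), did not pass the test, with adjusted p-values of 0.291 and 0.541.

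Interferon-induced genes held 27 low-GC promoters among 51, of which 13 differed, a share near the 44.2% of all regions, against 8 of the 24 of higher GC. In both intestinal tissues 5 were higher (*Ifit3*, *Ifit3b*, *Iigp1*, *Trim30c*, and *Gbp6*), beside 2.18% of all regions, and 0 of the 24 were. In edgeR's weakest contrast the BH adjusted p was 0.0386 for *Ifit3b* and 0.0413 for *Trim30c*, but 0.149 for *Gbp6*, 0.178 for *Iigp1*, and 0.255 for *Ifit3*. *Trim30c* had 3.61 to 5.49 CPM in the intestine and 1.02 to 1.91 elsewhere, and *Gbp6*, a guanylate-binding protein gene, 6.8 to 7.75 and 3.42 to 4.6. Other members were level over tissues, such as *Gbp4* (25.1 to 41.8 CPM, adjusted p = 0.927) and *Gbp9* (30.7 to 40.6 CPM, adjusted p = 0.781), which did not pass the F test. The DNA sensor gene *Ifi203* was called higher in LI (37.0 and 37.2 CPM, against 13.5 to 24.4, edgeR BH adjusted p = 0.107 in the weakest contrast). *Slfn2*, which restrains T cell activation, was lower in BM at both of its low-GC promoters.

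Adhesion and homing genes had 11 low-GC promoters among 26, and 5 of them differed, as did 5 of the 15 of higher GC. *Slamf7*, a SLAM family receptor gene, was called higher in SI (13.2 and 5.4 CPM, against 0.966 to 5.84, with overlap). Its BH adjusted p was 0.172 in edgeR's weakest contrast. *Cd28*, a costimulatory receptor gene, ran from 5.87 in BM to 42.4 CPM in LI. Chemokine and chemokine receptor genes had 6 among 21, of which 2 differed, against 10 of the 15 of higher GC. These were *Cxcl2* (13.5 and 15.8 CPM in BM, 62.4 and 69.1 in pancreas, edgeR BH adjusted p = 1.46e-06) and *Ccr2* (2.02 to 10.5 CPM, adjusted p = 0.000503). Secreted cytokine genes had 6 among 21 with 4 that differed (3 of the 15 of higher GC), and cytokine receptor genes 11 among 38 with 5 (5 of the 27). *Il1r1*, the IL-1 receptor gene, had 9.59 and 10.5 CPM in LI and 2.5 and 2.96 in SI. Antigen presentation genes had 6 among 25 with 4 that differed (11 of the 19 of higher GC), led by *H2-Eb1*, an MHC class II gene (17.6 and 8.5 CPM in SI, 4.06 and 4.21 in pancreas). GIMAP genes had 3 among 5, of which 1 differed, *Gimap3*, called lower in BM.

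Housekeeping families were mostly at promoters of higher GC. Of 55 promoters of cytosolic ribosomal protein genes 3 were low-GC, and *Rpl41* was called higher in BM (90.5 and 82.6 CPM, against 43.7 to 68.0, adjusted p = 0.0613), as were 7 of the 52 of higher GC, beside 4.5% of all regions. Of 64 promoters of respiratory chain genes 3 were low-GC, 0 of which differed, against 23 of the 61 of higher GC. Histone genes had 7 of 39, with 3 that differed (8 of the 32 of higher GC) and *H2bc9* called higher in BM. Zinc finger genes had 34 of 286, of which 6 differed, beside 43.1% of all low-GC promoters, and 53 of the 252 of higher GC. MicroRNA genes had 17 of 69, of which 10 differed, against 15 of the 52 of higher GC, and 5 were lower in BM, beside 6.63% of all regions. All 9 promoter regions of olfactory and vomeronasal receptor genes were low-GC, and 8 differed among tissues, beside 44.2% of all regions. *Olfr530* had 11 and 15.3 CPM in LI and 1.24 to 7.73 elsewhere. Defensin genes had 0 promoter regions. *Cd3e* and *Cd247* were the low-GC promoters of the T cell list (5 of 14 genes with a promoter, 29.1 to 44.8 CPM in sum), and neither differed. There were 0 low-GC promoters for ILC1, NK, and ILC3 markers (1 of 12 genes, 5.77 to 22 CPM), exocrine pancreas (1 of 16, 3.5 to 5.49 CPM), endothelium and stroma (1 of 11, 11.3 to 17.9 CPM), and mast cells, basophils, and eosinophils (0 of 14).

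The letters of low-GC promoters were compared with those of other regions in windows of 250 bp to either side of each centre, on both strands. AGATAA or TGATAA, letters of GATA factors, occurred in 50.6% of low-GC promoters, 12.3% of promoters of higher GC, 53.9% of the other regions under 50% GC, and 36.7% of all regions. The RUNX letters TGTGGT occurred in 41%, 20.1%, 49.1%, and 39.2% of these classes, in the same order. The AP-1 letters TGANTCA occurred in 24.6%, 8.36%, 31.5%, and 23.2%. The IRF letters GAAANNGAA occurred in 22.4%, 9.05%, 19.1%, and 14.9%, and TATAAA in 26.6%, 6.16%, 29.4%, and 18.4%. The SP/KLF letters GGGCGG occurred in 13.0%, 78.6%, 7.45%, and 31.3%, and the ETS letters CCGGAAG in 5.53%, 21.7%, 3.08%, and 8.94%. CCAAT was nearly even, in 50.4%, 45.6%, 47.1%, and 44.2%, and STAT letters TTCNNNGAA gave 16.1%, 8.4%, 16.5%, and 13.3%. The shares were not adjusted for base composition.

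**Figure D5:**
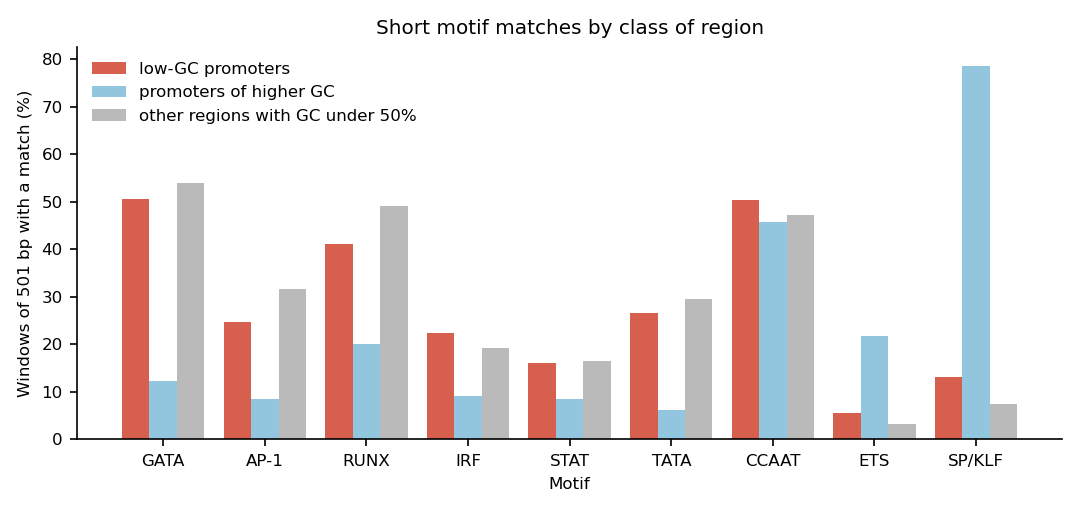
Percent of windows of 250 bp to either side of the centre with a match to the letters of a motif on either strand (y axis), by motif (x axis), for low-GC promoters (red), promoters of higher GC (blue), and other regions under 50% GC (grey). GATA letters were found in 50.6% of low-GC promoters and 12.3% of the others, and SP/KLF letters in 13.0% and 78.6%.

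Called low-GC promoters differed in their letters by tissue. GATA letters were found in 59 of the 81 higher in BM (72.8%), against 52.3% of all regions so called. These 2249 regions included 728 promoters of higher GC, of which only 109 held GATA letters. Such promoters lower the share of 52.3%, and a comparison without them was not made. GATA letters were also found in 33 of the 50 lower in SI (66.0%, against 58.7% of all regions so called). AP-1 letters were found in 17 of the 22 higher in LI (77.3%, against 54.9%) and in 50 of the 104 lower in BM (48.1%, against 46.8%). RUNX letters were found in 21 of the 32 higher in both intestinal tissues (65.6%, against 63.7%), and GATA letters in 12 of the 15 lower there (80.0%, against 64.3%), where AP-1 letters were found in 0.

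Split the other way, the 401 low-GC promoters with AP-1 letters included 55.4% that differed among tissues, 12.5% lower in BM, and 4.24% higher in LI. In the 1226 without them these shares were 39.2%, 4.40%, and 0.408%. Of the 824 with GATA letters 46.2% differed and 7.16% were higher in BM, against 40.0% and 2.74% of the 803 without. These splits were not made over all regions, so they do not set low-GC promoters apart. Over all regions AP-1 letters were in 46.8% of those lower in BM and 54.9% of those higher in LI, beside 23.2% of all. GATA letters were in 52.3% of all regions higher in BM, beside 36.7% of all. The median GC content was 45.5% with and 46.3% without AP-1 letters, and 45.1% and 46.7% for GATA letters. The sequence of *Gid8*, shown above, is an example of the group with GATA letters higher in BM, and those of *Il1rl1* of the group lower in SI.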

How the data were processed

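The assay was ATAC-seq, in 10 libraries. The authors checked reads with FastQC 0.11.9, mapped them to mm10 with Bowtie2 2.2.9, kept uniquely mapped reads, converted files with SAMtools 1.8, called peaks per library with MACS2 2.1.1, kept peaks present in both replicates, merged them with HOMER, and deposited raw read counts per merged peak, made with bedtools. Removal of duplicates, mitochondrial or blacklisted regions, and a Tn5 shift are not given in the sources used here.

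Groups came from the labels. Regions with at least 1 count in all (49981) were tested in edgeR 4.0.16 (R 4.3.3) with TMM scaling and the quasi-likelihood test, tissue as the only factor, the 10 libraries in 1 fit, and p-values adjusted over all regions (Benjamini-Hochberg). CPM values use the same scaling, log2 values a prior count of 2, and errors of log2 fold changes are SE. On simulated counts with low-GC promoters changed in BM, 70 of 100 changed 2-fold and 99 of 100 changed 4-fold were called, and 1 of 1427 unchanged ones. In the simulation all other regions had equal means over tissues and libraries had no trend with GC content, unlike the data. It therefore does not give the rate of false calls in the data. TSSs, GC content, and sequences came from RefSeq GRCm38.p6 (Python 3.11.15), with coordinates as deposited. Counting the start from 0 would leave 1621 members. The promoter's gene is the one with the nearest TSS, which does not show what it regulates.

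Genes were named by rule. For each tissue, and for LI and SI together, these are the 3 promoters with the largest smallest log2 fold change in each direction, leaving out numbered models and Rik symbols, with ILC2 genes, the 3 highest per length, those nearest to the limit of GC, and up to 3 per list by range. Members, lists, and rule were chosen with earlier results of these data known. DESeq2 1.42.0, used by the authors, was an alternative, with 15 others and each library left out in turn. Reads amplified by PCR and lacking molecular identifiers may come from 1 molecule. Depth limits promoters of few counts most. Some items that the rule names are not reported here.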

Additional observations from a re-analysis of the deposited data

How the results depend on the processing

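Percentages here are of the low-GC promoters tested, and medians are log2 fold changes of a tissue relative to the other 4. DESeq2's Wald test, DESeq2 size factors, and either other filter on low counts moved none of the 18 results by more than the limit (1.5 times for shares, the spread between replicates for medians). With GC content under 45%, higher calls in LI came to 2.35% and lower ones to 0.156%, lower calls in lung to 2.82% and in pancreas to 0.313%, and the medians to −0.138 in BM, 0.167 in LI, 0.08 in pancreas, and −0.0394 in SI, the last reversed. With GC under 55%, higher calls in LI came to 0.834% and the medians to 0.0397 in BM (reversed), 0.0233 in LI, and −0.036 in pancreas (reversed). With an adjusted p under 0.05 in each contrast, higher and lower calls were 0.43% and 1.66% in SI, 0.0615% and 0% in pancreas, 0.369% and 0.369% in lung, 0.307% and 0% in LI, 3.01% and 3.32% in BM, and 0.369% and 0.43% in LI and SI together. With a log2 fold change beyond 1 they were 0.369% and 0% in LI, 0.307% and 0.0615% in pancreas, 0.799% and 1.54% in SI, and 1.04% and 0.492% in LI and SI together, with 3.07% lower in BM and 0.43% higher in lung. With library size alone they were 0.553% and 0.86% in pancreas, 2.15% and 1.04% in lung, and 0.676% and 0.184% in LI, with 4.61% higher in SI, and the medians were 0.19 in SI, −0.106 in pancreas, 0.112 in lung, −0.0208 in LI, and −0.17 in BM, those of LI, lung, and pancreas reversed. With the trend in GC content and width removed they were 9.1% and 3.75% in BM and 0.676% and 0.553% in LI, lower calls were 0.922% in pancreas and 1.48% in LI and SI together, and the medians of BM (0.132), LI (−0.0653), and pancreas (−0.0979) were reversed. Lower calls in LI, which rest on 1 promoter, came to 0.123% with thinned counts, 0.0406% with a window of 1000 bp on both sides, and 0.109% with curated TSSs, where higher calls in SI were 1.31%. Fits on pairs of tissues gave 1.72% higher in pancreas and have no overall F test. The cause of these shifts was not tested.

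Deviations of same-numbered libraries correlated at −0.218 to 0.196 over 10 pairs of tissues, 5 of them negative. Pairs with pancreas gave −0.218 to −0.0995, BM and lung −0.0229, and the remaining pairs 0.0876 to 0.196. These values do not settle whether replicate numbers pair the samples. The replicate block left 0% lower in LI and moved no other result past the limit. The replicate block with the GC trend removed gave 8.6% and 3.69% in BM, 0.676% and 0.553% in LI, 1.97% higher in lung, 1.41% lower in LI and SI together, and reversed medians of −0.0944 in pancreas, 0.00129 in lung, −0.0662 in LI, and 0.132 in BM.

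With each library left out in turn, the lone library of its tissue being assumed to vary like the others, the share that differed among tissues ran from 31.0% to 48.7%. Higher calls ran from 1.11% to 3.69% in SI, 0.43% to 1.29% in pancreas, 0.43% to 1.35% in lung, 0.983% to 1.84% in LI, 1.78% to 6.15% in BM, and 0.615% to 2.4% in LI and SI together. Lower calls ran from 2.58% to 4.55%, 0.184% to 0.615%, 0.738% to 2.52%, 0% to 0.123%, 4.67% to 6.52%, and 0.738% to 0.922% in the same order. Medians ran from −0.129 to −0.071 in BM, 0.0732 to 0.149 in LI, −0.135 to −0.00228 in lung, −0.00649 (without pancreas replicate 2) to 0.0612 in pancreas, and −0.0606 (without SI replicate 1; −0.00242 without lung replicate 1) to 0.0372 in SI. Depth limits the low promoters: the shallowest library had a median of 71 counts per region.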
